A study of Mus musculus with 5 samples.

Results

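Cell cycle genes, 30 in number, were followed through the progenitor lineages of mouse bone marrow, among 15287 genes with UMI counts in single cells. Of the 30 genes, 10 act in S-phase (Mcm2, Mcm3, Mcm4, Mcm5, Mcm6, Gins2, Pcna, Tyms, Rrm2 and Ung) and 20 act in mitosis. They were chosen by these roles, though with earlier results of these data known. All samples came from untreated Fgd5CreERT2/+Rosa26Tomato/+ animals of 20 weeks, in which the Fgd5 locus drives the ZsGreen reporter and CreERT2 mainly in hematopoietic stem cells (HSCs) and the Rosa26 locus carries a Tomato allele that needs Cre to be expressed. Bone marrow was sorted as CD45.2+ Lin-kit+ cells in 3 samples, which take in progenitors of most blood lineages, and as ZsGreen+ cells within that gate in 2 samples, for 1 of which the sort also asked for the HSC phenotype Sca1+CD150+CD48-.

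Before S-phase, the MCM proteins are loaded onto DNA as the ring-shaped helicase that later unwinds it. GINS switches this helicase on, PCNA clamps the polymerases to the template, thymidylate synthase (Tyms) and the small subunit of ribonucleotide reductase (Rrm2) make building blocks for DNA, and uracil DNA glycosylase (Ung) removes uracil from it. Cells that pass through G2 accumulate cyclins, mitotic kinases and proteins of the centromere and spindle, whose transcripts peak around mitosis and are cleared as cells divide. Bone marrow progenitors divide often while they mature, whereas most HSCs rest at any given time.

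RefSeq windows (GRCm38.p6, the assembly that mm10 names) from 250 bases before to 50 bases after the start were matched for 25 of the 30 genes. The 5 windows printed are of genes on which the results below turn, each read along the gene's strand, with matches in capitals. The motifs searched on both strands were CCAAT, the cell cycle homology region (TTTGAA or TTCGAA) and the E2F forms TTTCGCGC, TTTGGCGC, TTTCCCGC and TTTGCCGC; matches may overlap.
Mcm5, chr8:75109259-75109558, forward strand: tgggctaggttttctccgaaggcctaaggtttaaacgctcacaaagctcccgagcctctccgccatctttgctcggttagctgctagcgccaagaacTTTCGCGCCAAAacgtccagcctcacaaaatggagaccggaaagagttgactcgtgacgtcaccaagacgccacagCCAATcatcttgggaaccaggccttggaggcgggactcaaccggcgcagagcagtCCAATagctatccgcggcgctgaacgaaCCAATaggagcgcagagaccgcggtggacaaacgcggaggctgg
Rrm2, chr12:24708004-24708303, forward strand: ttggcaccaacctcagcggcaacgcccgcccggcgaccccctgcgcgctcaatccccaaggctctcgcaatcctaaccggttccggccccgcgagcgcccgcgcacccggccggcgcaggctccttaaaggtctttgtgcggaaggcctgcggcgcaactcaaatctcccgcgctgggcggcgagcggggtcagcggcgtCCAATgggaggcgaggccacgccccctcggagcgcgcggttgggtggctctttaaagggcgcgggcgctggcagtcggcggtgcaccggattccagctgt
Ung, chr5:114130185-114130484, forward strand: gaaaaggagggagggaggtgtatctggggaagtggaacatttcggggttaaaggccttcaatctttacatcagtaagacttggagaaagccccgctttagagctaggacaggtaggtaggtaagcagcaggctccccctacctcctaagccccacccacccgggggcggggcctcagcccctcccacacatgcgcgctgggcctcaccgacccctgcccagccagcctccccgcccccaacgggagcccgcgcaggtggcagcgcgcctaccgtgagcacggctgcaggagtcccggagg
Ccnb2, chr9:70421505-70421804, reverse strand: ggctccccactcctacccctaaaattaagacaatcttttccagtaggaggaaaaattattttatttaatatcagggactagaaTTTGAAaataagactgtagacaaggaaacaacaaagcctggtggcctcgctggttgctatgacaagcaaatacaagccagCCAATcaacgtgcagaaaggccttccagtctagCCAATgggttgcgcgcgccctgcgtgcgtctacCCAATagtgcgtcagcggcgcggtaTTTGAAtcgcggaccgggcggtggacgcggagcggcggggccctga
Kif23, chr9:61946750-61947049, reverse strand: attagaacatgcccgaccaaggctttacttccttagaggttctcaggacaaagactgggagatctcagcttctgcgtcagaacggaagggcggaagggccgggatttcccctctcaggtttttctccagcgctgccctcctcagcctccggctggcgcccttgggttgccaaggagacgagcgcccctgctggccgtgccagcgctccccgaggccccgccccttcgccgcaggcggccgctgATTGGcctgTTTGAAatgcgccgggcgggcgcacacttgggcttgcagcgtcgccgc
The cell cycle homology region was found in 13 of 17 mitosis windows (76.5%), in 1 of 8 S-phase windows (12.5%) and in 19.2% of all 32851 windows in the table. All 13 mitosis windows with it, Ccnb2 and Kif23 among them, also held CCAAT, a combination found in 7.52% of all windows. CCAAT, with or without it, was found in 15 of the 17 mitosis windows, 6 of the 8 S-phase windows and 37.4% of all windows. An E2F form was found in 3 S-phase windows (Mcm3, Mcm5 and Mcm6), in 1 mitosis window (Cdk1) and in 2.26% of all windows. The windows of Ung, Tyms, Birc5 and Nusap1 held none of these letters. These matches are descriptions of the windows and not measured binding sites.

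The cell barcodes carried 5 suffixes, taken here as 5 libraries, with no population named. The suffixes of 1339, 4095 and 6147 cells (libraries a, b and c) were taken as the Lin-kit+ samples and the remaining ones as the reporter-positive samples (library d, the larger, and library e, the smaller), from cell numbers alone. The title and the source label of the 2 reporter-positive samples contradict each other on the HSC gate, so neither library is named by its gate here. Totals ran from 2166655 to 36080242 UMIs per library and medians from 3721 to 6567 UMIs per cell, 62 barcodes occurred under more than 1 suffix, and 165 cells (1.28%) were called doublets and kept. The number of animals is not given, so n counts libraries, and SDs measure the spread between libraries. The p-values between lineages rest on the spread that remains after a level for each library is fitted. Those between suffixes rest on the spread between libraries. Either spread may be technical.

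Cells of libraries a, b and c were clustered without the 30 genes, 118 further cell cycle genes and Fgd5, and clusters were named from marker genes. There were 10 named classes, which had at least 20 cells in each library and together held 7579 of the 11581 cells. The naming rule itself required a marker of the list among the 10 leading genes of a cluster. Such markers were Car1, Ermap and Aqp1 in erythroid-like, H2-Aa, Cd74 and Cd209a in dendritic-like and Hlf, Procr and Mecom in stem-like cells. The leading genes held only Klf4 of the list in monocyte-like cells and only Gfi1 in both clusters of early neutrophil-like cells, 1 of which also held the eosinophil gene Prg3. The basophil or mast cell-like class was mixed in its markers, with the eosinophil genes Prg2, Prg3 and Epx also enriched. At a clustering resolution of 2 in place of 1, 277 cells were named eosinophil-like and 307 basophil or mast cell-like. The lymphoid-primed-like class (378 cells, 41 of them in library a) also held Ebf1, Tcf7 and Ccl5 among its leading genes. At resolution 2, an unnamed cluster of 33 cells was led by Ccl5 and Tcf7, with the T or NK cell genes Cd3g, Il2rb and Klrd1 enriched. Genes that vary with the cycle but are on neither list stayed in the clustering, and p-values between classes do not account for the classes having been made from the same cells.

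Summed as groups, the mitosis genes varied more between lineages than the S-phase genes. By single genes, mean levels of Ung and Rrm2 differed 25.85-fold and 10.0-fold between the highest and lowest lineage, and the other S-phase genes 1.85-fold to 3.74-fold. Among mitosis genes, Kif23 differed 18.6-fold, Nusap1 9.76-fold and the others 2.27-fold to 7.01-fold. As a share of all UMIs, the S-phase genes ranged from 8.94 ± 0.671 per 10000 UMIs (mean ± SD, n = 3 libraries here and below) in basophil or mast cell-like to 15.4 ± 0.835 in monocyte-like cells. Within a library, the highest lineage exceeded the lowest 1.79-fold on average (SD 0.156, n = 3), and in library a the lowest was dendritic-like (7.34). The mitosis genes ranged from 11.4 ± 0.499 in early neutrophil-like to 38.1 ± 7.10 in dendritic-like cells, and the fold within a library was 3.40 on average (SD 0.713, n = 3), with erythroid-like cells lowest in library a (10.7). The dendritic-like values of 44.7, 30.6 and 39.2 in libraries a, b and c all lay above every value of the other named lineages. Over UMIs without the 50 most abundant genes, late neutrophil-like cells had the higher mean, 59.6 ± 6.10 against 49.3 ± 9.03 in dendritic-like cells. The late neutrophil-like values were then higher in libraries b and c (59.9 and 65.5 against 39.6 and 50.8) and lower in library a (53.3 against 57.5).

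**Figure D1:**
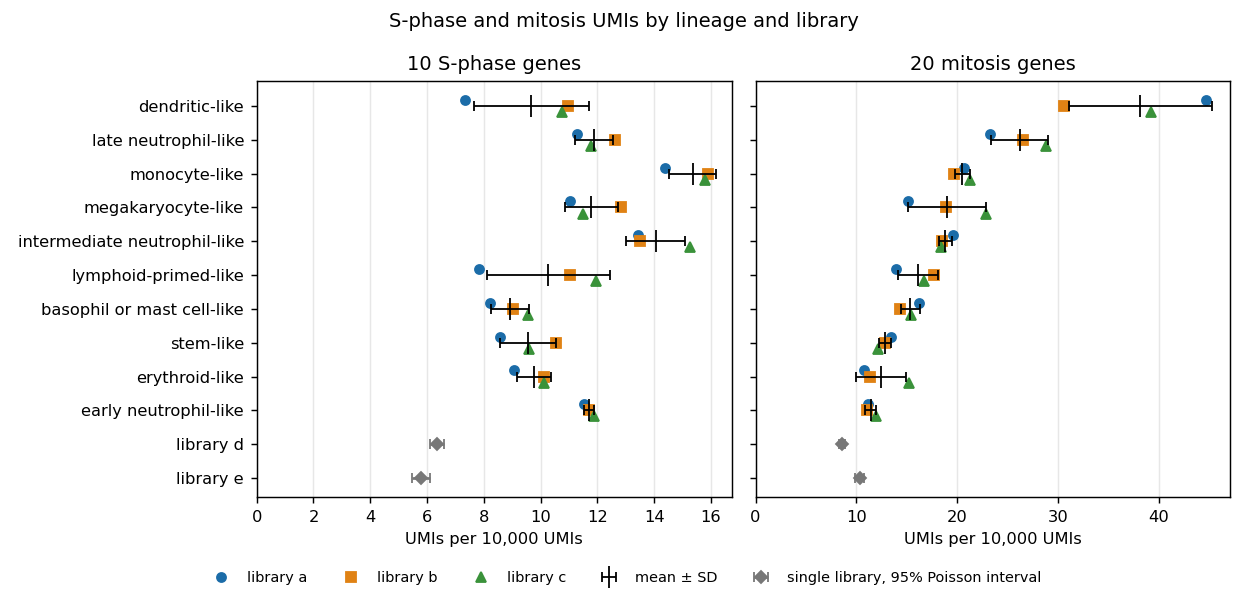
UMIs of the 10 S-phase genes (left) and the 20 mitosis genes (right) per 10000 UMIs of all genes. Symbols show single libraries, black bars the mean ± SD over 3 libraries, and grey diamonds libraries d and e with 95% Poisson intervals; the dendritic-like points lie highest on the right, at 30.6 to 44.7, and the monocyte-like points are at 14.4 to 15.9 on the left.

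Below the dendritic-like cells, mitosis shares fell into a graded order. Late neutrophil-like cells had 26.2 ± 2.81 per 10000, with 23.2, 26.5 and 28.8 in libraries a, b and c, above all libraries of the lineages that follow. Monocyte-like cells (20.5 ± 0.780) lay above intermediate neutrophil-like cells (18.8 ± 0.659) in each library, with 20.6, 19.7 and 21.2 against 19.6, 18.5 and 18.4, while megakaryocyte-like cells (19.0 ± 3.86) overlapped both. Without the 50 most abundant genes, intermediate neutrophil-like cells (36.4, 34.1 and 33.8) lay above monocyte-like cells (28.0, 26.6 and 28.8) in each library. Over all UMIs, lymphoid-primed-like (16.1 ± 1.95) and basophil or mast cell-like cells (15.3 ± 0.952) overlapped each other. Stem-like (12.8 ± 0.599), erythroid-like (12.4 ± 2.44) and early neutrophil-like cells were lowest. Erythroid-like cells overlapped both others, whereas stem-like cells lay above early neutrophil-like cells in each library (13.4, 12.8 and 12.2 against 11.13, 11.10 and 11.98). With the cell cycle genes kept in the clustering the order changed, to 34.1 in megakaryocyte-like, 24.8 in lymphoid-primed-like, 9.88 in erythroid-like and 5.02 in stem-like cells, the last 2 below early neutrophil-like cells at 11.6. Averaged over the shares of single cells in the main clustering, early neutrophil-like cells (10.98, 10.78 and 11.66) lay above stem-like cells (8.81, 9.32 and 8.70) in each library. Erythroid-like cells then had the lowest mean, at 8.38 ± 2.17.

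The order of the S-phase shares was not the same. Monocyte-like cells (14.4, 15.9 and 15.8 per 10000 in libraries a, b and c) and intermediate neutrophil-like cells (13.4, 13.5 and 15.2) were highest. Their ranges overlapped, and the monocyte-like value was the higher in each library. Over UMIs without the 50 most abundant genes that order turned, to 19.5, 21.5 and 21.4 in monocyte-like against 24.9, 24.9 and 28.0 in intermediate neutrophil-like cells. Late neutrophil-like cells then had 25.9, 28.5 and 26.7. Over all UMIs, late neutrophil-like (11.9 ± 0.678), megakaryocyte-like (11.8 ± 0.941) and early neutrophil-like cells (11.7 ± 0.178) overlapped one another. Lymphoid-primed-like (10.3 ± 2.17), erythroid-like (9.77 ± 0.604), dendritic-like (9.68 ± 2.02), stem-like (9.56 ± 0.979) and basophil or mast cell-like cells were lowest, without separation between neighbours. At resolution 2, the mean was 7.78 in eosinophil-like, 8.305 in dendritic-like and 9.83 in basophil or mast cell-like cells, the last no longer lowest.

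The balance of the groups, as the log2 ratio of S-phase to mitosis UMIs, was compared only between lineages, since UMIs of different genes are not on 1 scale. Early neutrophil-like cells had the highest ratio at 0.04 ± 0.05, with 0.05, 0.08 and -0.01 in libraries a, b and c. Dendritic-like cells had the lowest at -1.98 ± 0.57, with -2.60, -1.48 and -1.87, and late neutrophil-like cells followed at -1.14 ± 0.14. The other named lineages lay between -0.78 and -0.33 in their means. In their share of summed mitosis UMIs, erythroid-like cells (10.7, 11.4 and 15.2 per 10000 in libraries a, b and c) overlapped early neutrophil-like cells (11.13, 11.10 and 11.98). The erythroid-like value was the lower in library a and the higher in libraries b and c. The early neutrophil-like cells stood above the erythroid-like cells in the share of S-phase UMIs in every library. With the cell cycle genes kept in the clustering, the mean ratio was 1.04 in stem-like and 0.089 in erythroid-like cells, both above the 0.026 of early neutrophil-like cells.

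Each lineage was then compared with the mean of the other named lineages, gene by gene, by edgeR's quasi-likelihood test on UMIs summed per lineage and library, with Benjamini-Hochberg adjustment over 8342 genes and a call at an adjusted p under 0.05. Of the 30 genes, 28 were called in either direction in dendritic-like cells (39.8% of all genes), 27 in erythroid-like (56.7%), 26 each in early (51.2%), intermediate (46.2%) and late neutrophil-like (53.3%), 25 in stem-like (41.9%), 20 in monocyte-like (50.8%), 15 in basophil or mast cell-like (30.2%), 14 in lymphoid-primed-like (33.4%) and 11 in megakaryocyte-like cells (35.2%). Log2 folds are on the TMM scale, which sets the bulk of genes near 0. Scaling by library totals instead shifts the median gene by -1.01 in late and -0.58 in intermediate neutrophil-like cells, by -0.53 from early to intermediate and by -0.39 from intermediate to late, by 0.19 in dendritic-like, 0.24 in erythroid-like, 0.30 in lymphoid-primed-like, 0.32 in megakaryocyte-like and 0.34 in stem-like cells, and by 0.54 in the comparison of libraries d and e with a, b and c. In late neutrophil-like cells the 10 most abundant genes took 53.8% of all UMIs and in intermediate ones 33.5%, against 7.74% to 11.2% in the other lineages.

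**Figure D2:**
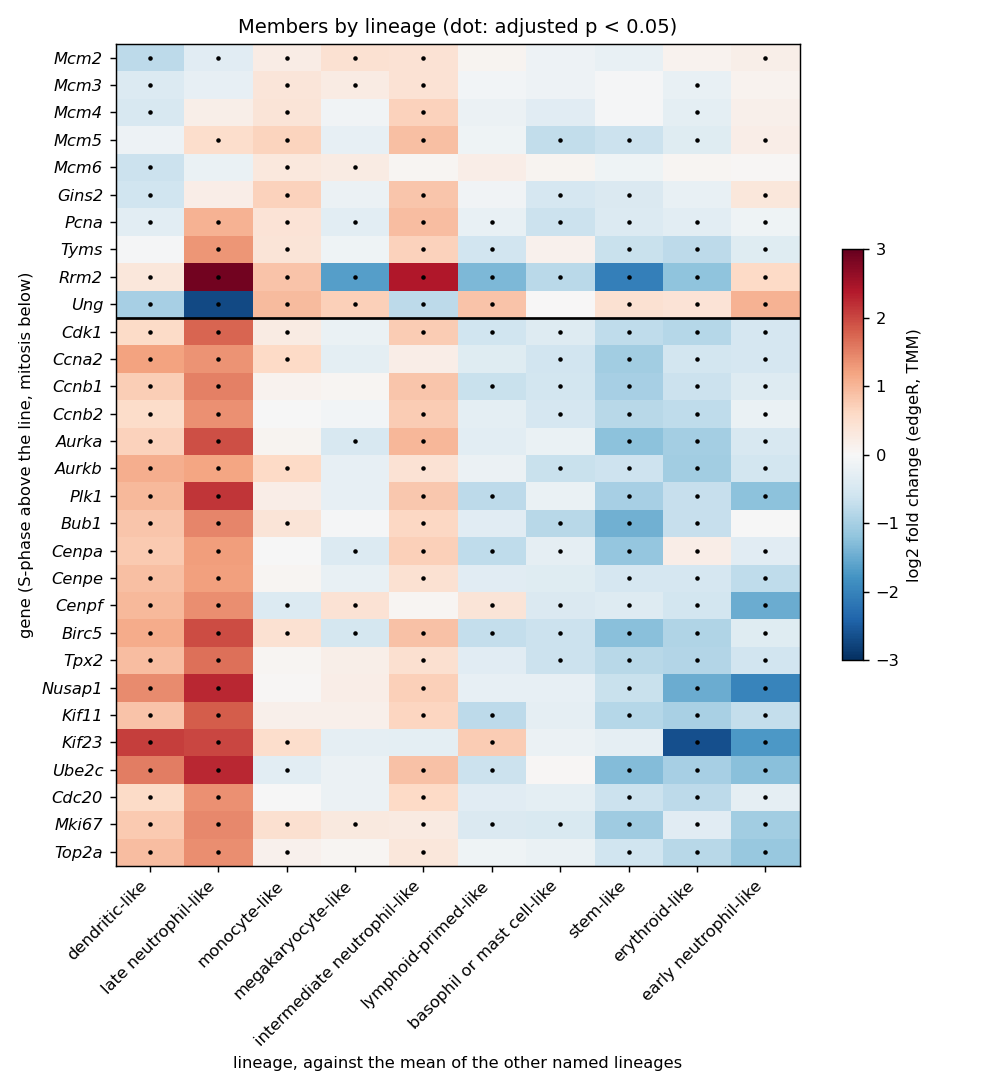
Log2 fold change (colour, edgeR, TMM) of each gene (rows; S-phase above the line, mitosis below) in each lineage (columns) against the mean of the other named lineages, with a dot where the adjusted p is under 0.05. Dendritic-like and late neutrophil-like columns are red for all 20 mitosis genes, and Rrm2 and Ung run against each other in late neutrophil-like (2.90 and -2.71) and stem-like cells (-2.06 and 0.45).

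Late neutrophil-like cells carried the strongest rise of the mitosis genes on this scale. All 20 were higher than in the other lineages, where 26.6% of all genes were called higher and 26.7% lower, and their median log2 fold was 1.49 against -0.16 over all genes tested. Nusap1, which bundles spindle microtubules, rose by 2.26 on the log2 scale, as did Ube2c, the ubiquitin-conjugating enzyme of the anaphase-promoting complex. Plk1, a kinase that drives mitotic entry, rose by 2.16 (SE 0.133, adjusted p = 6.51e-34). Among the S-phase genes 4 were higher (Rrm2, Tyms, Pcna and Mcm5), 2 were lower (Ung and Mcm2) and 4 were not called. With library totals, 16 mitosis genes were higher and none was lower, and the S-phase split became 2 higher and 7 lower with Mcm5 at -0.49. Of all genes, 9.6% were then called higher and 67.9% lower, and the share of all calls that were higher went from 49.99% to 12.4%. On the wider list of cell cycle genes, 59 of 71 tested mitosis genes were higher and 2 lower, and 27 of 44 S-phase genes higher and 1 lower.

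Along the 3 neutrophil stages the S-phase genes parted from one another. Ung was at 67.0, 51.8 and 25.9 CPM (UMIs of a gene per 1000000 UMIs of all genes) in early neutrophil-like cells of libraries a, b and c, at 18.7, 15.6 and 2.74 in intermediate cells and at 2.64, 2.18 and 1.68 in late cells. The level fell from stage to stage within every library, and early and late values did not overlap. Only 6 Ung UMIs were found in late cells against 367 in early cells, a ratio of shares of 20.5 with a 95% counting interval from 9.31 to 56.1.

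Ung fell by 1.64 on the log2 scale from early to intermediate (SE 0.251, adjusted p = 6.49e-09) and by 1.74 from intermediate to late cells (SE 0.590, adjusted p = 0.0233). The later step rested on few UMIs and was not called by DESeq2, without the library as a block, or without library a or b. Against all other lineages Ung was lower by a log2 fold of -2.71 in late cells (SE 0.428, adjusted p = 1.34e-08). Ung also differed between libraries, with its lowest level in library c in 9 of the 10 lineages.

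Rrm2 moved the other way. It stood at 211, 223 and 253 CPM in early cells of libraries a, b and c, at 479, 447 and 547 in intermediate cells and at 438, 533 and 549 in late cells. The early values lay below all others, while intermediate and late values overlapped. From early to intermediate cells the log2 fold was 1.62 (SE 0.0716, adjusted p = 3.61e-49), and against all other lineages Rrm2 was higher by 2.90 in late cells (SE 0.0651, adjusted p = 1.19e-88).

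The helicase genes made up a shrinking part of all UMIs along the path. Mcm2 to Mcm6 together held 5.45 ± 0.102 per 10000 UMIs in early, 4.68 ± 0.200 in intermediate and 2.75 ± 0.196 in late cells, without overlap between stages. The test on the TMM scale did not give the same direction at each step. From early to intermediate cells Mcm2, Mcm3, Mcm4 and Mcm5 were called higher, and Mcm3 and Mcm4 turned negative with library totals (-0.24 and -0.052). From intermediate to late cells Mcm2 (-0.69) and Mcm3 (-0.61) were called lower, and library totals kept that direction.

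**Figure D3:**
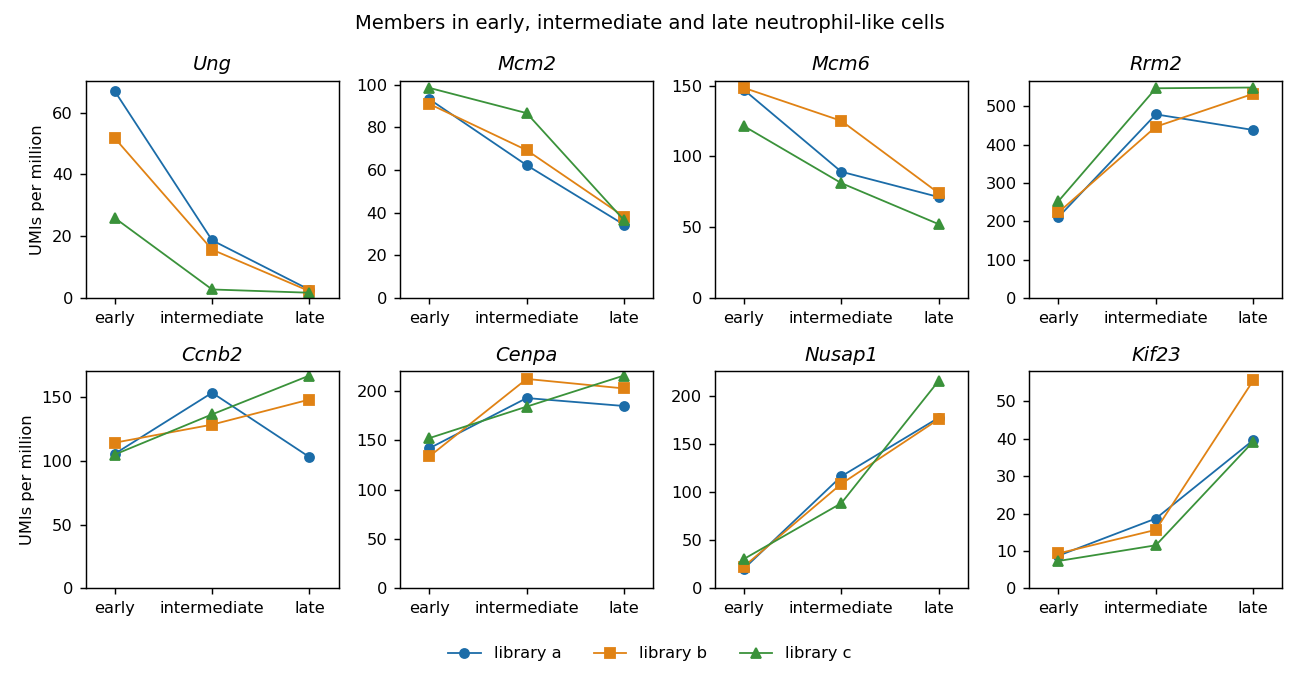
CPM (vertical axes, from 0) of 8 genes in early, intermediate and late neutrophil-like cells of libraries a, b and c, joined by lines within a library. Ung falls from 67.0, 51.8 and 25.9 to under 3 in each library, Mcm2 and Mcm6 are lowest in late cells, Rrm2 is at 211 to 253 in early cells and above 400 later, and Nusap1 and Kif23 rise at both steps.

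Mitosis genes rose at each stage on the TMM scale. From early to intermediate cells 19 of the 20 were called higher and none lower, beside 21.5% and 22.6% of all genes. From intermediate to late cells 19 were higher and none lower, beside 8.33% and 11.1% of all genes. Nusap1 went from 20.4, 22.6 and 30.5 CPM in early cells to 116, 108 and 88.3 in intermediate and 177, 175 and 215 in late cells of libraries a, b and c, with no overlap between stages. Its log2 fold at the earlier step was 2.43 (SE 0.143, adjusted p = 1.61e-35).

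Kif23, a kinesin of the central spindle needed for cytokinesis, rose mostly at the later step, from 18.7, 15.6 and 11.5 to 39.6, 55.6 and 39.2 CPM, with a log2 fold of 2.07 (SE 0.239, adjusted p = 1.96e-13). Ccnb2, a mitotic cyclin, rose less on the TMM scale, by 0.86 and 0.55 at the 2 steps. Its mean CPM did not rise at the later step, with 139.5 in intermediate and 139.4 in late cells. The level fell from 153.5 to 103 in library a and rose from 128 to 148 and from 137 to 167 in libraries b and c. Of the S-phase genes 7 were higher and 1 lower at the earlier step, and 2 were higher and 4 lower at the later one. With library totals the mitosis counts were 17 and 13 higher and none lower, while the S-phase counts turned to 3 higher and 4 lower, and to 0 higher and 8 lower. Beside these, 9.66% of all genes were higher and 51.1% lower at the earlier step, and 3.08% and 27.2% at the later one. Without library c, 15 of the 30 genes were called at the later step in place of 25, beside 12.4% of all genes. The share of all calls that were higher went, with library totals, from 48.8% to 15.9% at the earlier step and from 42.9% to 10.2% at the later one.

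Early neutrophil-like cells had 19 mitosis genes lower than the other lineages and none higher, beside 18.6% and 32.6% of all genes, and 5 S-phase genes higher and 2 lower. The mitosis genes did not fall evenly. Nusap1 was lower by -1.98 (SE 0.0970, adjusted p = 3.83e-44), Kif23 by -1.72, Cenpf by -1.48, Ube2c by -1.24 and Plk1 by -1.22, whereas Ccnb2 (-0.19) and Cdc20 (-0.28), the activator of the anaphase-promoting complex, fell little and Bub1, a kinase of the spindle checkpoint, gave -0.01 and was not called. Ung was higher by 1.05 and Rrm2 by 0.61. Intermediate neutrophil-like cells had 8 S-phase genes higher and 1, Ung, lower, and 17 mitosis genes higher and none lower, beside 26.6% and 19.6% of all genes. With library totals these became 3 and 2, and 3 and 4, beside 12.3% of all genes higher and 52.8% lower. The share of all calls that were higher went from 57.7% to 18.8%.

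In dendritic-like cells the groups went in opposite directions. All 20 mitosis genes were higher than in the other lineages, while 7 of the 10 S-phase genes were lower and only Rrm2 was higher, beside 22.6% of all genes higher and 17.2% lower. Each of the 20 mitosis genes also had its highest mean UMI share of all named lineages here. Kif23 was at 117, 76.9 and 103 CPM in libraries a, b and c, against at most 74.0 in any library of another lineage, and its log2 fold was 2.07 (SE 0.156, adjusted p = 4.28e-26). Ube2c followed with 840, 383 and 585 CPM and a log2 fold of 1.53 (SE 0.0795, adjusted p = 1.58e-41).

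Of the helicase genes in dendritic-like cells, Mcm2 stood at 37.9, 63.1 and 62.4 CPM, with a log2 fold of -0.78 (SE 0.142, adjusted p = 1.02e-06). Ung gave -0.98 (SE 0.306, adjusted p = 0.00546) on 21 UMIs in all. The highest mitosis share and the lowest S-phase share both came from library a, which held 57 of the 507 cells. Of 8 monocyte markers, 5 were enriched in this class, beside 7 of 9 dendritic ones, and their part in the result was not tested. With library totals the S-phase split was 1 higher and 3 lower and all 20 mitosis genes stayed higher, beside 29.8% of all genes higher and 11.1% lower. The share of all calls that were higher went from 56.8% to 72.9%. On the wider list, 54 of 71 tested mitosis genes were higher and 3 lower, led by Melk (1.91), Racgap1 (1.90) and Nek2 (1.82), whereas 17 of 44 S-phase genes were lower and 3 higher.

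Monocyte-like cells raised the S-phase group as a whole. All 10 S-phase genes were higher than in the other lineages and none was lower, beside 33.7% and 17.1% of all genes. Ung (0.96, SE 0.116, adjusted p = 5.55e-13), Rrm2 (0.85), Gins2 (0.69) and Mcm5 (0.66) led, and Mcm2 rose least (0.23). Mcm5 was at 177, 203 and 195 CPM in libraries a, b and c, against at most 169 in any library of another named lineage. Of the mitosis genes 8 were higher and 2, Cenpf (-0.41) and Ube2c (-0.32), were lower. On the wider list 32 of 44 S-phase genes were higher and none lower.

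Erythroid-like cells were at the other end for several spindle genes. Kif23 was at 3.67, 7.89 and 4.43 CPM in libraries a, b and c, from 22 UMIs in all, below early neutrophil-like cells in each of the 3 libraries. Its log2 fold was -2.63 (SE 0.238, adjusted p = 3.37e-20), the largest fall of any of the 30 genes in a lineage against the others, except Ung in late neutrophil-like cells. Nusap1 gave a log2 fold of -1.50 (SE 0.113, adjusted p = 5.10e-26).

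In all, 19 mitosis genes were lower in erythroid-like cells and 1 was higher, and 6 S-phase genes were lower and 1, Ung, was higher, beside 30.1% of all genes higher and 26.7% lower. The exception was Cenpa, the histone variant of the centromere, at 231, 190 and 265 CPM and a log2 fold of 0.21 (SE 0.0684, adjusted p = 0.00574), a call that DESeq2, the fits without the library block and without library c, and clusters made with the cell cycle genes did not give. Rrm2 fell by 1.21. On the wider list 50 of 71 mitosis genes were lower and 4 higher. With library totals 15 of the 20 mitosis genes were lower and 3 S-phase genes were higher and 2 lower, beside 42.6% of all genes higher and 18.1% lower. The share of all calls that were higher went from 53.0% to 70.2%.

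Stem-like cells had 19 mitosis genes lower and none higher, beside 17.5% and 24.4% of all genes. Bub1 (-1.43), Ube2c (-1.30) and Birc5 (-1.26), the chromosome passenger also called survivin, fell most, and Kif23 was the gene not called (-0.28). Most helicase genes had folds nearer 0, with Mcm2 at -0.21, Mcm3 and Mcm4 at -0.03 and Mcm6 at -0.13, none of them called, and Mcm5 at -0.65, which was called. Rrm2 was at 19.1, 83.1 and 49.8 CPM in libraries a, b and c and gave the largest fall, -2.06 (SE 0.122, adjusted p = 4.30e-35). In total 5 S-phase genes were lower and 1, Ung (0.45), was higher. On the wider list 50 of 71 mitosis genes were lower and 1 higher, and 21 of 44 S-phase genes lower and 3 higher. With library totals 14 of the 20 mitosis genes were lower, and 3 S-phase genes were higher and 3 lower. Of all genes, 52.3% were then called in either direction and 7.14% were called lower. The share of all calls that were higher went from 58.2% to 86.4%.

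Megakaryocyte-like cells had 3 of the 5 helicase genes higher and Rrm2 lower. Mcm2 stood at 137, 126 and 144 CPM in libraries a, b and c, above every library of the other named lineages, with a log2 fold of 0.45 (SE 0.105, adjusted p = 1.79e-04). Mcm3, Mcm6 and Ung were also called higher, whereas Rrm2 (-1.65, SE 0.128, adjusted p = 8.36e-25) and Pcna (-0.31) were lower. Among mitosis genes, Cenpf (0.43) and Mki67 (0.30), which coats mitotic chromosomes, were higher, Birc5, Aurka and Cenpa were lower, and 15 were not called, beside 20.0% of all genes higher and 15.2% lower. The share of all calls that were higher went from 56.9% to 84.4% with library totals, where 6 mitosis genes were higher and none lower and Pcna gave 0.0092. Of all genes, 39.3% were then higher and 7.25% lower. With the cell cycle genes kept in the clustering, 19 mitosis genes were higher, beside 18.5% of all genes higher and 14% lower. Birc5 (0.42), Aurka (0.50) and Cenpa (0.56) were among the 19, and Mcm2 (-0.040), Mcm3 (-0.25), Mcm6 (-0.17) and Ung (-0.37) turned negative. Without library b 6 (27.9% of all genes) and without library c 7 (26%) of the 30 genes were called, in place of 11.

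Lymphoid-primed-like cells had Kif23 (0.76, SE 0.203, adjusted p = 0.00135) and Cenpf (0.39) higher and 8 mitosis genes lower, with Rrm2 (-1.35), Tyms (-0.57) and Pcna (-0.23) lower and Ung higher (0.87) in the S-phase group, beside 19.5% of all genes higher and 13.9% lower. With library totals 3 S-phase and 2 mitosis genes were higher and 1 and 4 lower, beside 34.2% of all genes higher and 6.19% lower. Pcna then gave 0.067, and the split of all calls went from 58.4% to 84.7% higher. With the cell cycle genes kept in the clustering, Ube2c (0.37, adjusted p = 0.00319) and Ccnb1 (0.41, adjusted p = 0.0162) were higher, and Plk1 (0.28), Kif11 (0.13) and Cenpa (0.016) also turned positive. In basophil or mast cell-like cells 4 S-phase and 11 mitosis genes were lower and none was higher, beside 20.2% higher and 10.0% lower of all genes, and the split of all calls went from 66.7% to 78.2% higher. Rrm2 (-0.81), Mcm5 (-0.75) and Bub1 (-0.82) fell most there, and 6 of the 30 genes (21.2% of all genes) were called without library c in place of 15. At resolution 2, with the eosinophil-like class apart, 5 of the 30 were called, beside 20.7% of all genes.

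In mean level, Rrm2 separated the lineages more than any other S-phase gene except Ung. Its mean level was 50.7 ± 32.0 CPM in stem-like, 63.6 ± 20.2 in megakaryocyte-like, 72.8 ± 31.0 in lymphoid-primed-like, 80.5 ± 23.9 in erythroid-like and 99.7 ± 10.2 in basophil or mast cell-like cells, which overlapped in part. It was 204 ± 62.6 in dendritic-like and 278 ± 39.8 in monocyte-like cells and higher still in intermediate and late neutrophil-like cells. Library a had the lowest Rrm2 level in 9 of the 10 lineages and library c the highest in 9, the reverse of Ung, so levels of both genes also moved with the library.

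Single cells were compared after thinning each to 2000 UMIs, with a cell counted when it kept at least 2 UMIs of a group. Shallower cells were left out, 9 to 148 per lineage, most of them in erythroid-like (148 of 848), stem-like (110 of 697) and dendritic-like cells (90 of 507), and 27 and 136 in libraries d and e. No class known to lack cycle transcripts was at hand to measure the background from free RNA. Shares with mitosis UMIs ran from 26.6% of 587 stem-like cells to 80.3% of 605 late neutrophil-like cells. Early neutrophil-like cells, with the lowest mean share of summed mitosis UMIs, were not low here, at 53.73 ± 3.74% (mean ± SD over libraries). Megakaryocyte-like (39.65 ± 6.48%), erythroid-like (33.62 ± 6.71%), basophil or mast cell-like (33.28 ± 1.59%) and lymphoid-primed-like cells (29.88 ± 4.91%) lay below them. Dendritic-like cells, with the highest share of mitosis UMIs, reached only 60.2% of 417 cells, below monocyte-like (67.8%) and intermediate neutrophil-like cells (69.8%). In 27.6% of them neither group reached 2 UMIs, against 6.03% of monocyte-like and 4.96% of late neutrophil-like cells. Shares with S-phase UMIs ran from 42.2% in dendritic-like to 72.8% in monocyte-like cells. Without thinning, mitosis UMIs were found in 30.6% of stem-like, 58.0% of dendritic-like, 90.8% of monocyte-like, 91.0% of late and 91.5% of intermediate neutrophil-like cells, and S-phase UMIs in 49.3% of dendritic-like and 94.97% of monocyte-like cells.

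**Figure D4:**
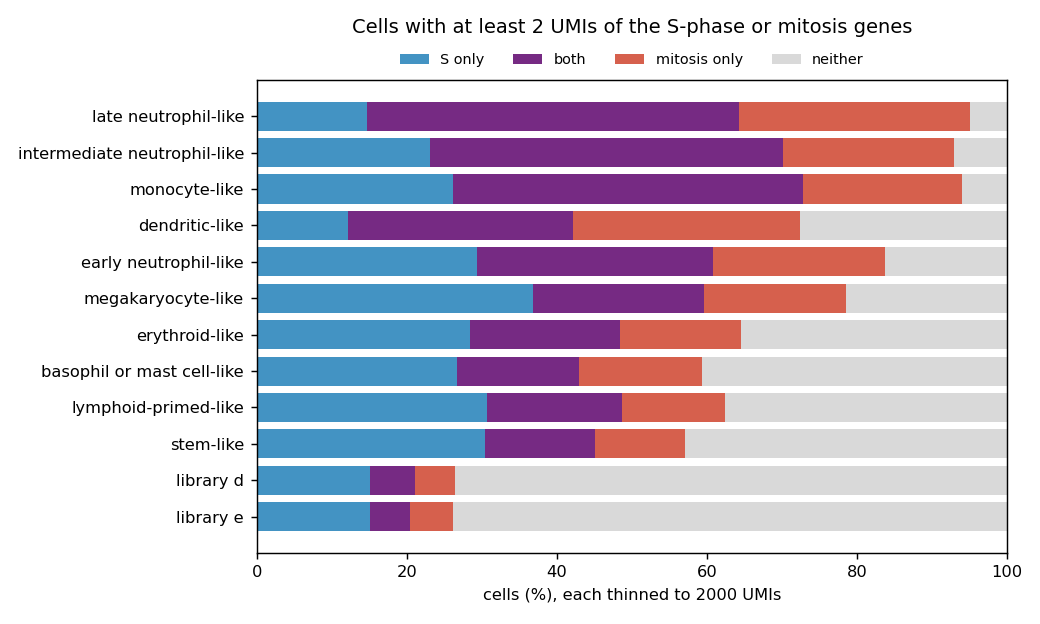
Percentage of cells (horizontal axis) with at least 2 UMIs of the S-phase genes alone, of both groups, of the mitosis genes alone, or of neither, after thinning to 2000 UMIs; libraries a, b and c are pooled for lineages. The grey part, neither group, covers 4.96% of late neutrophil-like, 42.9% of stem-like and 73.6% and 73.9% of cells in libraries d and e.

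Whether the groups met in the same cells differed between lineages. In monocyte-like cells, S-phase UMIs were found in 68.7% of cells with mitosis UMIs and in 81.3% of the others, and the lower share with mitosis UMIs was seen in each library (63.9% against 68.9%, 71.0% against 82.4% and 68.4% against 83.5%). Late neutrophil-like cells gave 61.7% and 74.8%, with the same direction in each library. Without thinning the order turned in both, to 95.5% and 89.8% in monocyte-like and 85.4% and 82.1% in late neutrophil-like cells. In stem-like cells the order was the opposite, 55.1% and 41.5%, again in each library (47.1% against 34.4%, 60.3% against 47.7% and 52.6% against 40.1%), and without thinning, 77.0% and 43.6%. Cells with mitosis UMIs were also deeper, with a median of 7515 UMIs against 3376 in erythroid-like and 4298.5 against 2983 in stem-like cells, and the part of depth in these shares beyond the thinning was not tested.

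The reporter-positive libraries d and e were low in both groups. S-phase genes took 6.34 (95% Poisson interval 6.10 to 6.59) and 5.78 (5.46 to 6.11) per 10000 UMIs, against 12.5, 13.02 and 13.2 in libraries a, b and c, and mitosis genes took 8.57 (8.29 to 8.86) and 10.3 (9.90 to 10.8), against 16.9, 16.6 and 18.2. The intervals cover counting error only. The log2 ratio of S-phase to mitosis UMIs was -0.43 in library d, within the range of -0.46 to -0.35 of libraries a, b and c, and -0.84 in library e, below it.

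Over 11991 genes tested between libraries d and e and libraries a, b and c, 9 S-phase and 19 mitosis genes were lower and none was higher, while 32.7% of all genes were called higher and 30.4% lower. Their median log2 folds were -1.43 and -1.42, against 0.07 over all genes. Rrm2 was at 29.7 and 27.2 CPM in libraries d and e and fell by 3.66 on the log2 scale (SE 0.138, adjusted p = 3.22e-06), the largest fall of the 30. Kif23, at 30.7 and 30.9 CPM, gave -0.24 (SE 0.0975, adjusted p = 0.0628) and was not called, nor was Ung (-0.91, SE 0.465, adjusted p = 0.129), and Cenpf fell by 0.46. With library totals 9 S-phase and 17 mitosis genes were lower and 1 mitosis gene was higher, beside 54.9% of all genes higher and 16.6% lower. Cenpf then gave 0.082, and the share of all calls that were higher went from 51.8% to 76.8%.

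Mitosis UMIs of libraries d and e were concentrated in few cells. In library d, 61 cells (7.69%) had at least 10 mitosis UMIs and held 87.3% of all mitosis UMIs of that library. In library e, 34 cells (6.55%) did and held 89.3%. Among stem-like cells of libraries a, b and c, 88 of 697 (12.6%) did and held 79.6%. After thinning, 11.2% of cells in library d (95% Wilson interval 9.18 to 13.7) and 11.0% in library e (8.22 to 14.5) had at least 2 mitosis UMIs, and 21.2% and 20.4% had at least 2 S-phase UMIs, all below the lowest lineage of libraries a, b and c. S-phase UMIs were found in 53.5% and 47.6% of cells with mitosis UMIs, against 17.1% and 17.0% of the others. Without thinning, 20.0% and 14.1% of cells had mitosis and 42.0% and 30.6% S-phase UMIs. Doublets were called in 3.28% and 3.08% of cells in these libraries, and cells with mitosis UMIs had medians of 8274.5 and 9304.5 UMIs against 4244.5 and 4437 in the others; the part of doublets and depth in this pattern was not tested.

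For 5 clusters that no marker list named, values alone are given. A cluster led by Clec4b2 and Vcam1, with Elane among its enriched genes, had 13.3 ± 0.263 S-phase and 14.8 ± 1.46 mitosis UMIs per 10000, and its Ung level of 35.4, 33.7 and 16.1 CPM in libraries a, b and c lay between early and intermediate neutrophil-like cells. A cluster led by Camp and Ngp had 13.7 ± 1.17 and 22.3 ± 1.11, with Ung at 8.53, 8.06 and 1.04, between intermediate and late cells in libraries a and b and below both in library c. A cluster led by Siglech and Lgmn had 15.04 ± 0.658 and 22.4 ± 1.37. Clusters led by Ttll9 and Met and by Bpifc and Myct1 had log2 ratios of S-phase to mitosis UMIs of 0.07 ± 0.15 and -0.02 ± 0.30, near that of early neutrophil-like cells.

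Genes outside both cell cycle lists were ranked by how closely their level followed the groups over the 30 sums of 10 lineages by 3 libraries, among 4220 genes. These sums share libraries and the scaling by all UMIs. Mxd3 (Spearman's rho 0.919), Fbxo5 (0.906), Actg1 (0.891), Tuba1c (0.891) and Tcf19 (0.882) lay closest to the mitosis share, followed by Lyn, Cdkn2d, Kpna2, Actb and Clic1. Apitd1 (0.881), Tipin (0.797), Slc43a3 (0.772), Atp6v1c1 (0.772) and Zfp414 (0.757) lay closest to the S-phase share, followed by Clec5a, Hmgn2, Gm10282, Cenpk and Txn1. The highest value for the S-phase share after Apitd1 was lower than every value among the 10 genes for the mitosis share.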

How the data were processed

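Single-cell RNA of Lin-kit+ and reporter-positive bone marrow was measured with Chromium 3' chemistry, version 2. The authors deposited 1 table of raw UMI counts (genes by cells) for 12893 cells in 5 barcode suffixes, whose cell numbers are 1339, 4095, 6147, 793 and 519. The submitters' processing notes name Cell Ranger 1.3 and 2.1, Seurat 2.3.4 and mm10, without their roles. The 30 genes and all lists were chosen with earlier results of these data known. The genes named are the 30, at most the 3 of the wider list (46 S-phase and 72 mitosis genes) per group with the largest fold past the threshold, and the 10 genes of at least 20 CPM on average closest to each group's share by Spearman correlation of log2(CPM + 1), where CPM is UMIs per 1000000.

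Cells of the 3 large suffixes were clustered (scanpy 1.11.5, leidenalg 0.10.2) on 2000 variable genes, 148 cell cycle genes and Fgd5 left out, with 20 components, 15 neighbours and resolution 1. A cluster was named where at least 3 markers of 1 list reached a fold of 2 and a detection rate of 5% of its cells and where its 10 leading genes held a marker of that list and no other list had more there, thresholds set after the clusters were seen. Clusters of 1 name were merged. Doublets were called with Scrublet and kept. UMI counts summed per lineage and library were tested with edgeR 4.0.16 (R 4.3.3; TMM, filterByExpr, quasi-likelihood test, Benjamini-Hochberg adjustment over all genes), with the library as a block between lineages, since lineages of 1 library share its cells, and without it between suffixes. SEs were derived from the test's statistic. On simulated counts for the erythroid-like comparison (7213 genes), 86.8% of 2-fold and 99.6% of 4-fold changes were found, and 4.92% of calls fell on unchanged genes. For the comparison of suffixes (11304 genes), 79.7% and 99.3% were found, and 4.45% of calls fell on unchanged genes. The simulations drew every sum from a common profile with a fixed spread and no library effect, and changed only few genes with many UMIs. They therefore do not give the error rates of the tests on the real data, where lineages differ in many genes. Shares of UMIs and of cells were not tested. No cells, genes or columns of the table were left out of the totals behind UMI shares and CPM. In the edgeR tests, library totals were taken over the genes that passed the filter, 8342 between lineages and 11991 between suffixes. Alternatives covered the scaling, DESeq2 1.42.0, filters, clustering, the block, the averaging, the thinning depth and each library left out.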

Additional observations from a re-analysis of the deposited data

How the results depend on the processing

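Leaving out doublets, shallow or mitochondria-rich cells or the filter on low counts moved no count of called genes by over 1.5 times, nor did DESeq2. Library totals in place of TMM gave 12 called genes in intermediate neutrophil-like cells in place of 26, beside 65% of all genes. With them the sign turned for Mcm3 in erythroid-like cells (0.030), for Mcm3 (-0.15), Tpx2 (-0.10), Cenpe (-0.13), Mcm2 (-0.15), Mki67 (-0.30), Aurkb (-0.15) and Top2a (-0.23) in intermediate neutrophil-like cells, for Mcm5 in late cells (-0.49), for Pcna in lymphoid-primed-like (0.067) and megakaryocyte-like cells (0.0092), for Mcm3 (-0.24), Gins2 (-0.10) and Mcm4 (-0.052) from early to intermediate cells, and for Cenpf in libraries d and e (0.082). Keeping the cell cycle genes in the clustering gave 23 called genes (32.5% of all genes) in megakaryocyte-like cells in place of 11, a mean within-library fold between the highest and lowest mitosis share of 8.89 in place of 3.40, and a mean within-library range of the log2 ratio of 3.08 in place of 2.02. It turned Mcm3 (0.066) and Cenpa (-0.091) in erythroid-like cells, Ube2c (0.37), Cenpa (0.016), Plk1 (0.28), Ccnb1 (0.41) and Kif11 (0.13) in lymphoid-primed-like cells, and Mcm3 (-0.25), Mcm6 (-0.17), Aurka (0.50), Cenpa (0.56), Ung (-0.37), Mcm2 (-0.040) and Birc5 (0.42) in megakaryocyte-like cells. The cause was not tested in any of these cases. Resolution 2, at which an eosinophil-like class joins the other lineages, gave 5 called genes (20.7% of all genes) in place of 15 in basophil or mast cell-like cells, Gins2 at 0.035 there, and a within-library fold of the S-phase share of 2.12 in place of 1.79, which was 2.37 over UMIs without the 50 most abundant genes and 2.03 as a mean over cells, where that of the mitosis share was 4.24.

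Without the library as a replicate block, called genes went from 15 to 8 in basophil or mast cell-like, 14 to 8 in lymphoid-primed-like and 11 to 4 in megakaryocyte-like cells and from 25 to 16 between intermediate and late cells. The shares of all genes called without the block were 23.5%, 28.4%, 29.4% and 13.1%. No other count moved by over 1.5 times. Leaving out 1 of libraries a, b and c at a time gave 6 to 18, 11 to 13, 6 to 11 and 15 to 26 called genes for these 4 comparisons, and left the other counts within 1.5 times. Beside them, 21.2% to 27.3%, 25.1% to 30.5%, 26% to 31.4% and 12.4% to 17.9% of all genes were called. The range between lineages within a library in the share of cells with S-phase UMIs, on average 32.9 percentage points, was 24.6 when thinned to 1000 UMIs and 46.2 unthinned, and that of mitosis UMIs, 53.9, was 47.2 and 61.5. Depth limits Ung in late neutrophil-like cells, at 6 UMIs, and Kif23 in erythroid-like cells, at 22. No paired analysis was possible between libraries d and e and libraries a, b and c, because the suffixes carry no replicate numbers.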
